A study of Mus musculus with 8 samples.

Results

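Integrin chains of splenic tumors and of the cells that gave rise to them are described here through 10 genes, which encode 6 alpha chains (Itga4, Itga5, Itga6, Itgal, Itgam and Itgav) and 4 beta chains (Itgb1, Itgb2, Itgb3 and Itgb7). They were chosen by name, and every probe set whose gene symbol in the platform annotation was one of them was taken. This gave 21 of the 22690 probe sets on the array, none of which named several genes. Of these, 15 passed the filter on low signal and 6 did not, so 9 of the 10 chains were among the 8539 genes tested and Itgb3 was not.

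Integrins are adhesion receptors made of an alpha and a beta chain that pair before they reach the cell surface. The alpha chain largely sets which ligand is bound, and the tail of the beta chain recruits talin and kindlin, which switch the receptor on and tie it to actin. On blood cells the alpha 4 and alpha 5 chains pair with beta 1 to bind VCAM-1 and fibronectin, alpha L and alpha M pair with beta 2 to bind ICAMs and complement fragments, and alpha 4 with beta 7 binds the gut addressin MAdCAM-1. Beta 1 also pairs with alpha 6, the laminin receptor of progenitors and many epithelia.

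The tumors (n = 3) came from the spleens of 3 nude mice with leukemia or lymphoma, each injected into a vein with FL5.12 cells that stably carried Bfl-1DC and p53DD. FL5.12 is an IL-3-dependent mouse pro-B line. The parental cells were these same transfected cells, untreated and kept in culture with WEHI-3B supernatant as the source of IL-3, so both groups carry Bfl-1DC and p53DD. By its label the material consists of tumor cells derived from spleen. Whether it was cultured is not settled, and the age of the mice was not given in the sources used here. Nude mice lack most thymus-derived T cells and keep other blood cells, and growth in a mouse and host cells of the spleen cannot be told apart by this design. RNA of each source was hybridised to 2 Affymetrix arrays, numbered 1 and 2, which gave 6 tumor arrays and 2 parental arrays.

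The comparison of tumors with parental cells addressed which genes change as tumors form. The median signal of an array lay between 32.4 and 37.9, and the 40th percentile of an array, used here as the floor of detection, lay between 15.6 and 20.6. Of 11 pro-B markers on the array 4 passed the filter, and Pax5, Ebf1, Rag1 and Dntt did not. The signal chain genes Cd79a and Cd79b stood at 87.7 and 95.2, and at 109 and 77.6, on the parental arrays. Nothing states that separate cultures lay behind the 2 parental arrays, and p-values then measure a spread that may be technical. In bulk RNA, fewer cells of a type and less RNA per cell cannot be told apart.

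On both parental arrays 8 of the 10 chains lay above the floor, namely Itga4, Itga5, Itga6, Itgal, Itgav, Itgb1, Itgb2 and Itgb7, while Itgam and Itgb3 lay below it. On all 6 tumor arrays 6 chains lay above it, namely Itga5, Itgam, Itgav, Itgb1, Itgb2 and Itgb7. Itga4 did so on 4 of the 6, Itgal on 3, Itga6 on 2 and Itgb3 on 0. The floor was set for each array and was lower on both parental arrays than on every tumor array. The lowest tumor signals of Itga4 and Itgal, 16.3 and 16.4, lay above the floors of both parental arrays. Against those floors Itga4 and Itgal would thus count as detected on all 6 tumor arrays, and their lower counts depend on the floor used. With the 60th percentile as the floor, 5 chains, Itga6, Itgav, Itgb1, Itgb2 and Itgb7, lay above it on both parental arrays, and the detection of Itga4, Itga5 and Itgal there rests on low signal.

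Across the chains 1 of the 9 tested fell, Itga6, and 0 rose, at an adjusted p under 0.05 by limma. The share called over all genes was 0.773% (66 of 8539), with 0.176% lower (15 genes) and 0.597% higher (51). With each array centred on its median the split was 27 lower and 48 higher, and Itga6 was again the 1 chain called. At an unadjusted p under 0.05 the count was 2 of 9, Itga6 and Itgam, where 16.4% of all genes passed. All 3 tumors lay below both parental arrays for Itga6 and Itgb7 and above them for Itgam, 3 of 9 chains, against 35.6% of all genes with such a separation. The share of separated chains was thus near that of all genes. The median change of the 9 chains was -0.04 on the log2 scale, and that of all genes was 0.02.

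**Figure D1:**
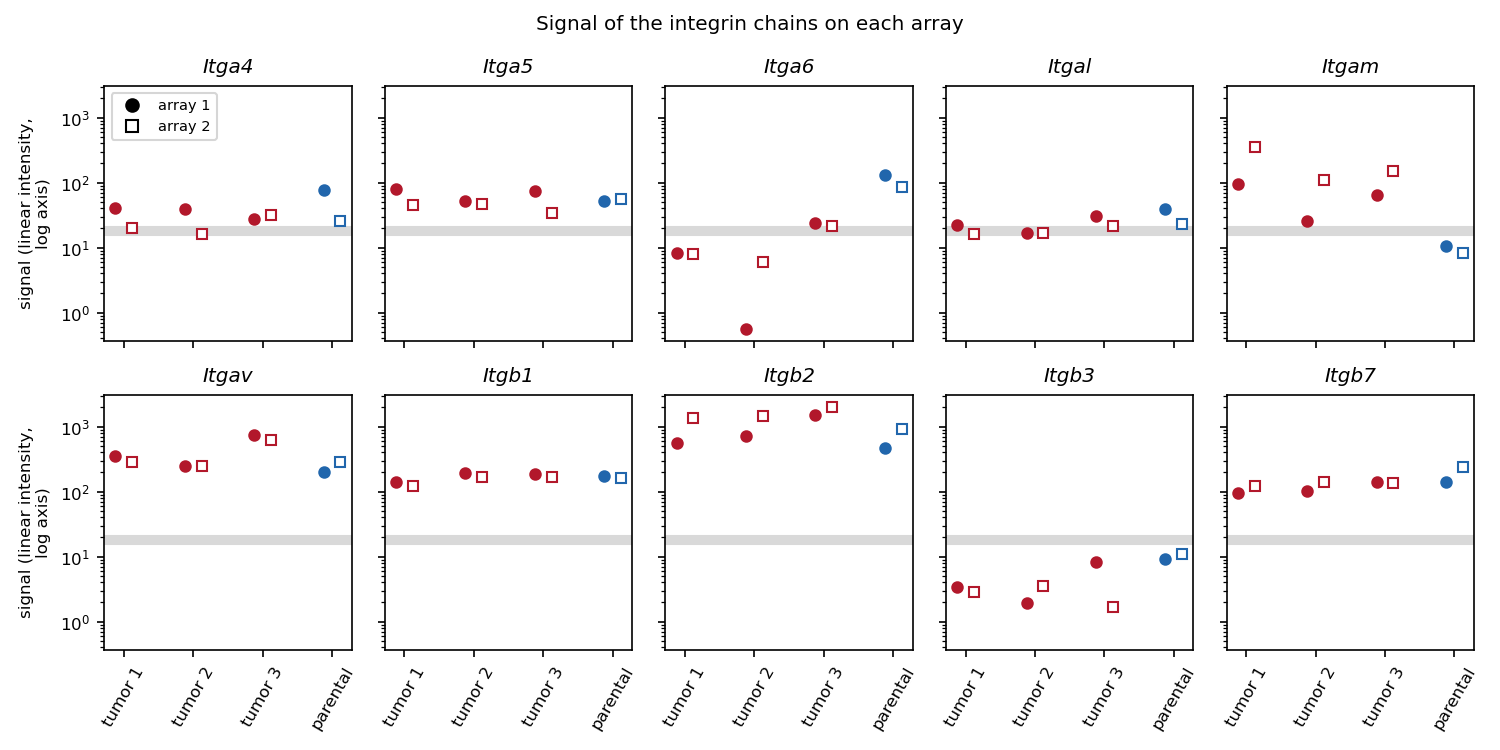
Signal of each integrin chain (linear intensity on a log axis) on the 2 arrays of each tumor (red) and of the parental cells (blue), for the probe set of highest mean. Filled circles are first arrays, open squares second arrays, and the grey band spans the 40th percentiles of the arrays, 15.6 to 20.6. Itga6 is lower and Itgam higher on all 6 tumor arrays than on both parental arrays.

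Itga6, which encodes the alpha chain of the laminin receptors alpha 6 beta 1 and alpha 6 beta 4 (GRCm38.p6 chr2:71786886-71858427), had signals of 8.26 and 7.95 on the tumor 1 arrays, 0.557 and 5.92 for tumor 2 and 23.6 and 21.7 for tumor 3, against 130.2 and 84.6 in parental cells. Every tumor array lay below both parental arrays, tumor 3 stood highest of the tumors, and the groups did not overlap. The means were 11.3 ± 10.1 (SD, n = 3 tumors) in tumors and 107 ± 32.3 (SD, n = 2 arrays) in parental cells. Itga6 fell by 2.22 ± 0.33 (SE) on the scale of log2(signal + 16), with an adjusted p of 0.0462 by limma. Since tumors 1 and 2 lay below the floor, the size of the change depends on the pseudocount. It was -3.57 with a pseudocount of 1 (adjusted p = 0.157) and -1.18 with 64 (0.0614).

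The second probe set of Itga6 gave signals of 0.702 and 0.915 on the tumor 1 arrays, 1.56 and 0.621 for tumor 2 and 11.8 and 0.757 for tumor 3, against 65.4 and 38.6 in parental cells. It was below the floor on all 6 tumor arrays and above it on both parental arrays. In the limma fit of all 14897 probe sets that passed the filter, where 0.698% were called and 0.201% were called lower, the 2 probe sets fell by 2.22 and by 1.86, with adjusted p of 0.0464 and 0.0282. These were the only probe sets of the integrin chains called in that fit.

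Taken separately, each tumor was below the parental cells for Itga6, with differences of -2.33 ± 0.24 (SE), -2.67 ± 0.24 and -1.65 ± 0.24 in tumors 1, 2 and 3. Adjusted p by limma was 0.00271, 0.00167 and 0.0116 in a fit of all 8 arrays whose spread is that between duplicate arrays. In that fit 3.68%, 1.53% and 2.55% of all genes were called in tumors 1, 2 and 3, and the 3 comparisons share the parental arrays. With a pseudocount of 1 the call in tumor 3 was lost (0.169). Tumor 3 stood 1.02 above tumor 2, and the F test over the 3 tumors did not pass (adjusted p = 0.168). The call of Itga6 over the 3 tumors was lost without parental replicate 1 (adjusted p = 0.18) or 2 (0.16), without tumor 1 (0.104) or tumor 2 (0.0619), with no filter (0.109) and with the tumors' first arrays alone set against both parental arrays (0.074). Without tumor 3 it held, at -2.50 (0.0168).

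The 3 genes whose log2 values followed Itga6 most closely over the 8 arrays were Hemgn, a nuclear protein of blood progenitors, Ppp1ca, a catalytic subunit of protein phosphatase 1, and Mpg, a DNA glycosylase. Their Pearson correlations with Itga6 were 0.985, 0.967 and 0.966. These are descriptions over 8 arrays of 4 sources. Erythroid markers, which include Hemgn, summed over the 9 genes on the array to between 904 and 1889 in tumors and between 1764 and 2903 on the parental arrays, and 0 of 7 tested passed. The defining genes Alas2 and Hba-a1 did not pass the filter. Platelet and megakaryocyte markers, a lineage that carries alpha 6, summed to between 745 and 1088 in tumors and between 726 and 834 on the parental arrays, with 0 of 7 called. Itga2b, an integrin chain, was the largest part of the platelet sum, at 471 to 669 in tumors and 459 and 367 in parental cells. The part of these cell types in the result was not tested.

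Itgb1, the common beta chain that pairs with alpha 4, 5, 6 and v (GRCm38.p6 chr8:128685654-128733579), had signals of 138 and 120.4 on the tumor 1 arrays, 195 and 168 for tumor 2 and 185 and 165 for tumor 3, against 171 and 160 in parental cells. The tumors lay on both sides of the parental arrays. The means were 162 ± 28.5 (SD, n = 3) in tumors and 165 ± 7.99 (SD, n = 2) in parental cells, a difference of -0.04 ± 0.19 (SE, adjusted p = 0.942 by limma). Of its 6 probe sets 3 passed the filter, and the others of these had changes of 0.25 and -0.16.

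The fibronectin receptor chain Itga5 (GRCm38.p6 chr15:103344286-103366791) also overlapped between the groups, with 55.5 ± 6.27 in tumors and 54.4 ± 3.08 in parental cells and a difference of -0.01 ± 0.16 (adjusted p = 0.979). Its signals were 79.7 and 45.1 on the tumor 1 arrays, 52.8 and 47.5 for tumor 2 and 74.3 and 33.6 for tumor 3, against 52.2 and 56.5 in parental cells. In each tumor the first array was the higher one.

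Itga4, the alpha chain shared by the receptors for VCAM-1 and MAdCAM-1 (GRCm38.p6 chr2:79255426-79333114), had signals of 40.4 and 20.0 on the tumor 1 arrays, 39.5 and 16.3 for tumor 2 and 27.4 and 31.6 for tumor 3. The parental arrays gave 75.9 and 25.4 for Itga4 and thus differed from each other by more than the group means did. The difference of -0.48 ± 0.32 (SE) did not pass (adjusted p = 0.509 by limma), and it was 0.10 without parental replicate 1. Its second kept probe set had a change of -0.23.

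Itgb7, the beta chain of the gut-homing receptor (GRCm38.p6 chr15:102215994-102233405), had signals of 96.5 and 120.3 on the tumor 1 arrays, 103 and 138 for tumor 2 and 138 and 133 for tumor 3, against 138 and 239 in parental cells. The mean of each tumor lay below both parental arrays, but by little against the first of them. The means were 122 ± 13.8 (SD, n = 3) in tumors and 188 ± 71.2 (SD, n = 2) in parental cells, and the difference of -0.54 ± 0.24 (SE) did not pass (adjusted p = 0.338). Among arrays of number 1 it was -0.28 and among arrays of number 2 it was -0.80.

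**Figure D2:**
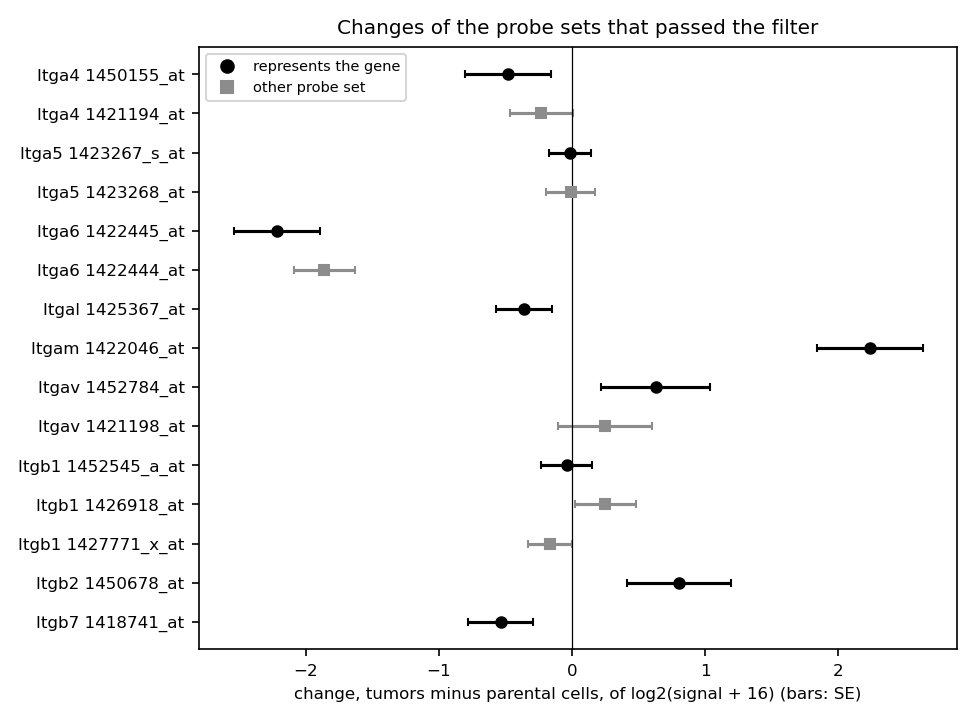
Difference of log2(signal + 16), tumors minus parental cells, with its SE, for the 15 integrin probe sets that passed the filter (limma fit of all probe sets, 3 tumors and 2 parental arrays). Black circles mark the probe set that represents the gene and grey squares the others. The 2 probe sets of Itga6 lie at -2.22 and -1.86 and that of Itgam at 2.24.

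Itgam, the alpha M chain of the complement receptor known as Mac-1 or CD11b on granulocytes and macrophages (GRCm38.p6 chr7:128062640-128118491), had the highest difference of the 9 chains. Its promoter is shown beside that of Itgb1, whose signals overlapped between the groups, as a contrast. The sequences are the 250 bases before the RefSeq start on the plus strand, at GRCm38.p6 chr7:128062390-128062639 and chr8:128685404-128685653. Capitals mark GAGGAA, the purine-rich core bound by the myeloid and B cell factor PU.1, or its reverse complement TTCCTC.
Itgam: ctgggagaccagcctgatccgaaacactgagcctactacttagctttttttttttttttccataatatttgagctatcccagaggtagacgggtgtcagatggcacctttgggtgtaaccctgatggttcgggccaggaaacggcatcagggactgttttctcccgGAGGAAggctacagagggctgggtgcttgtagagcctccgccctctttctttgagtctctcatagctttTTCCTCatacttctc
Itgb1: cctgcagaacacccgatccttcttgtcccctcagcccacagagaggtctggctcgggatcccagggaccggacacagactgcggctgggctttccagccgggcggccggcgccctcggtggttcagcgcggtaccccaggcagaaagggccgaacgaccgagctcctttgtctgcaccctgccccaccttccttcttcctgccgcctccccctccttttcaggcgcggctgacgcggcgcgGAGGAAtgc

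The Itgam window held 2 matches, which begin 84 and 15 bases before the start, and that of Itgb1 held 1, beginning 9 bases before it. A match on either strand was found in 4 of the 6 chains for which RefSeq promoters were used (in Itga5, Itgam, Itgav and Itgb1, not in Itga4 and Itgb7), and in 23.3% of all 32851 windows of the same length. The match is a description of letters and was found in both windows.

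Itgam signals were 94.9 and 348 on the tumor 1 arrays, 25.3 and 111 for tumor 2 and 65.5 and 151 for tumor 3, against 10.5 and 8.17 in parental cells. Every tumor array lay above both parental arrays, the second array of each tumor was the higher one, and tumor 2 stood lowest. The means were 133 ± 79.4 (SD, n = 3) in tumors and 9.34 ± 1.65 (SD, n = 2) in parental cells. The difference of 2.24 ± 0.40 (SE) did not pass over all genes (adjusted p = 0.0769 by limma). Both parental values lie below the floor, and with a pseudocount of 1 or 64 the difference was 3.28 or 1.25. Among arrays of number 1 it was 1.44 and among arrays of number 2 it was 3.03.

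The call of Itgam depended on the arrays. It passed with the tumors' second arrays alone against both parental arrays (2.97, adjusted p = 0.0313) and without tumor 2 (2.60, 0.0215). It did not pass with the tumors' first arrays alone (1.51, 0.166). For single tumors the differences of Itgam were 2.99, 1.52 and 2.21 in tumors 1, 2 and 3, with adjusted p of 0.0567, 0.381 and 0.151, so 0 of the 3 passed. With the replicate number as a block the p-values were 0.00549, 0.0779 and 0.0204, and in that fit 15.1%, 6.20% and 10.6% of all genes were called.

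Itgb2, the beta 2 chain CD18 that pairs with alpha L and alpha M (GRCm38.p6 chr10:77530329-77565708), had signals of 550 and 1344 on the tumor 1 arrays, 717 and 1436 for tumor 2 and 1532 and 2034 for tumor 3, against 464 and 922 in parental cells. The second array was the higher one in all 4 sources, and the second parental array lay above the first arrays of tumors 1 and 2. The means were 1269 ± 450 (SD, n = 3) in tumors and 693 ± 324 (SD, n = 2) in parental cells, and the difference of 0.80 ± 0.39 (SE) did not pass (adjusted p = 0.366 by limma). It was 0.84 among arrays of number 1 and 0.76 among arrays of number 2, and 0.32 without parental replicate 1. In tumor 3 alone the difference was 1.41 (adjusted p = 0.22, and 0.00945 with the replicate number as a block).

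Itgal, the alpha L chain of the leukocyte receptor LFA-1 (GRCm38.p6 chr7:127296139-127335137), had signals of 22.0 and 16.4 on the tumor 1 arrays, 17.1 and 16.9 for tumor 2 and 30.3 and 21.5 for tumor 3, against 39.5 and 23.4 in parental cells. Values in both groups lay near the floor and the groups overlapped. The difference of -0.36 ± 0.21 (SE) did not pass (adjusted p = 0.442 by limma), and it was -0.11 without parental replicate 1 and -0.61 without parental replicate 2.

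Some markers of myeloid cells were also higher in tumors, where 0.597% of all genes were called higher. Neutrophil markers summed over the 15 genes on the array to between 5414 and 7411 in tumors and between 353 and 849 on the parental arrays, with 2 of 12 tested called higher. Macrophage and monocyte markers summed over 16 genes to between 1422 and 2076 in tumors and between 209 and 925 on the parental arrays, with 3 of 8 called higher. Eosinophil markers summed over 7 genes to between 4144 and 7647 in tumors and between 40.2 and 45.5 on the parental arrays, with 2 of 5 called higher.

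The markers that passed by limma were named after their values were seen. The neutrophil granule genes Mpo and Ngp rose by 6.19 ± 0.23 (SE, adjusted p = 0.000191) and 4.50 ± 0.65 (0.0411). The macrophage and monocyte genes Lyz2, Cd14 and Ccr2 rose by 2.77 ± 0.15 (0.000801), 2.81 ± 0.34 (0.0246) and 5.01 ± 0.42 (0.00616), and the eosinophil granule genes Epx and Prg2 by 7.05 ± 0.19 (5.2e-05) and 5.78 ± 0.64 (0.0168). These SEs are over means of the 2 arrays of each tumor, which differed widely for Lyz2. Lyz2 stood at 45.7 and 903 on the tumor 1 arrays, 93.2 and 437 for tumor 2 and 86.7 and 475 for tumor 3. With the replicate number and the source as blocks the calls of Ngp (0.104), Lyz2 (0.177) and Cd14 (0.141) were lost. The tumors' first arrays alone lost those of Ngp (0.139), Lyz2 (0.106), Cd14 (0.142) and Prg2 (0.0745). With no filter or a pseudocount of 64 those of Ngp, Cd14 and Prg2 were lost (0.0614 to 0.114), and with a pseudocount of 1 that of Ngp (0.0605). A robust limma prior that follows the mean signal lost the calls of Ngp (0.09) and Prg2 (0.0605), and the mean of probe sets that of Ngp (0.052). With the source alone as a block the calls of Ngp (0.089), Lyz2 (0.2) and Cd14 (0.184) were lost. Leaving out parental replicate 1 or 2 ended those of Ngp (0.179 and 0.194), Cd14 (0.143 and 0.16), Ccr2 (0.112 and 0.118) and Prg2 (0.143 and 0.157), and leaving out tumor 1 or 3 that of Ngp (0.06 and 0.0776).

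The myeloid lists were uneven inside. The late granule gene Camp and the chemokine receptor gene Cxcr2 lay below the floor in tumors, as did the macrophage genes C1qa, C1qc, Marco and Cd163 and the eosinophil receptor gene Ccr3. Itgam and the neutrophil sum averaged highest in tumor 1, and the macrophage and eosinophil sums were highest in tumor 3. Itgam and all of these sums averaged lowest in tumor 2. On the second arrays, where Itgam was higher, the macrophage and monocyte sum was 2902, 1953 and 2736 in tumors 1, 2 and 3, against 758, 891 and 1417 on the first arrays. The parental arrays of number 2 and 1 gave 925 and 209 for that sum, of which Csf1r, the M-CSF receptor gene, made up 555 and 11.5, while Itgam stood below the floor on both. The part of these cell types in the Itgam and Itgb2 values was not tested.

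**Figure D3:**
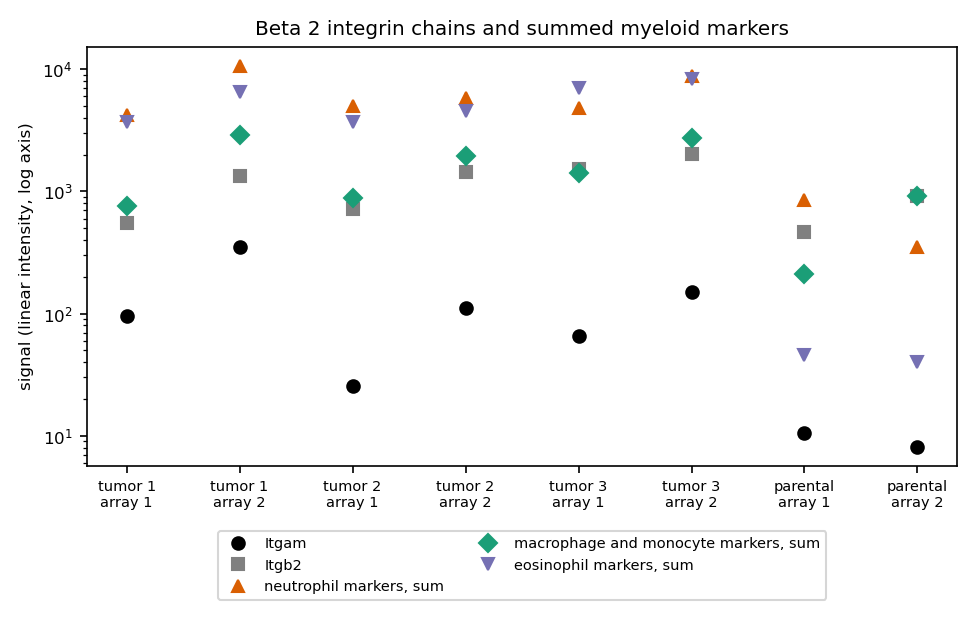
Signal of Itgam and Itgb2 and the summed signals of neutrophil, macrophage and monocyte, and eosinophil markers (linear intensity, log axis) on each of the 8 arrays, tumors at the left and parental cells at the right. Itgam lies between 25.3 and 348 on tumor arrays and at 10.5 and 8.17 on parental arrays, and in each tumor Itgam, Itgb2 and the 3 sums are higher on the second array.

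Itgav, the alpha v chain of receptors for vitronectin and other RGD ligands (GRCm38.p6 chr2:83722303-83806917), had signals of 357 and 287 on the tumor 1 arrays, 248 and 249 for tumor 2 and 754 and 614 for tumor 3, against 199 and 289 in parental cells. Both arrays of tumor 3 lay above all others, and tumor 2 lay between the parental arrays. The means were 418 ± 233 (SD, n = 3) in tumors and 244 ± 63.3 (SD, n = 2) in parental cells, and the difference of 0.63 ± 0.41 (SE) did not pass (adjusted p = 0.495 by limma). Without tumor 3 it was 0.22.

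In tumor 3 alone Itgav was higher than in parental cells by 1.44 ± 0.23 (SE, adjusted p = 0.019 by limma over duplicate arrays), and the differences of 0.39 and 0.05 in tumors 1 and 2 did not pass (0.402 and 0.966). The F test over the 3 tumors gave an adjusted p of 0.0532, with 1.62% of all genes called. With the replicate number as a block it gave 0.0234, with 6.44% of all genes called. It also passed with a pseudocount of 64 (0.0366), quantile normalization (0.0442) and the filter at the 60th percentile (0.0485). Of the other Itgav probe sets, the one that passed the filter also stood highest in tumor 3, at 58.3 and 37.1, and had a change of 0.25 over the 3 tumors.

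Itgb3, the beta chain of the vitronectin receptor and of the platelet fibrinogen receptor (GRCm38.p6 chr11:104608000-104670476), was below the floor on all 8 arrays. Its signals were between 1.66 and 8.25 on tumor arrays and were 9.12 and 10.99 on parental arrays. Neither its change in the main fit nor its pair with Itgav was therefore tested. With no filter all 10 chains were tested by limma and 0 were called.

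Set against each other within a sample, the alpha and beta chains of 7 known heterodimers were compared, with both chains above the floor in at least 2 arrays. The measure is the change of the alpha chain minus that of the beta chain, so that a positive value means that the alpha chain gained on its partner in the tumors. For 3 tumors and 2 parental arrays the exact two-sided permutation test cannot give a p below 0.1, so no pair can pass a threshold of 0.05. Adjusted over the 7 pairs by Benjamini-Hochberg, the p-values lay between 0.35 and 1, so unequal shifts are described here and not shown by a test.

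For Itga6 and Itgb1 the difference of changes was -2.18, at -2.01, -2.79 and -1.72 in tumors 1, 2 and 3, with an exact permutation p of 0.1 (n = 3 and 2). For Itgal and Itgb2 it was -1.17, at -0.80, -1.12 and -1.57, again with an exact p of 0.1. In both pairs all tumors lay below both parental arrays. The value for Itga6 and Itgb1 was -3.53 with a pseudocount of 1 and -1.15 with 64. That for Itgal and Itgb2 was -0.43 without parental replicate 1 and -1.90 without parental replicate 2, and with a pseudocount of 64 it was -0.93 (exact p of 0.3).

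For Itgam and Itgb2 the difference was 1.43, at 2.60, 0.90 and 0.80 in tumors 1, 2 and 3, with an exact permutation p of 0.2. All tumors lay above both parental arrays. Since Itgam was below the floor in parental cells, the value was 2.47 with a pseudocount of 1 and 0.49 with 64 (exact p of 0.6), and it was 0.85 without tumor 1 and 0.88 without parental replicate 2. For Itgav and Itgb1 the difference of 0.67 (exact p of 0.4) overlapped, with tumor 3 at 1.37 and tumor 2 at -0.08.

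The pairs Itga4 and Itgb1 (-0.44, exact permutation p of 0.5), Itga4 and Itgb7 (0.06, exact p of 1) and Itga5 and Itgb1 (0.03, exact p of 1) overlapped as well. Their signs turned under some settings.

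**Figure D4:**
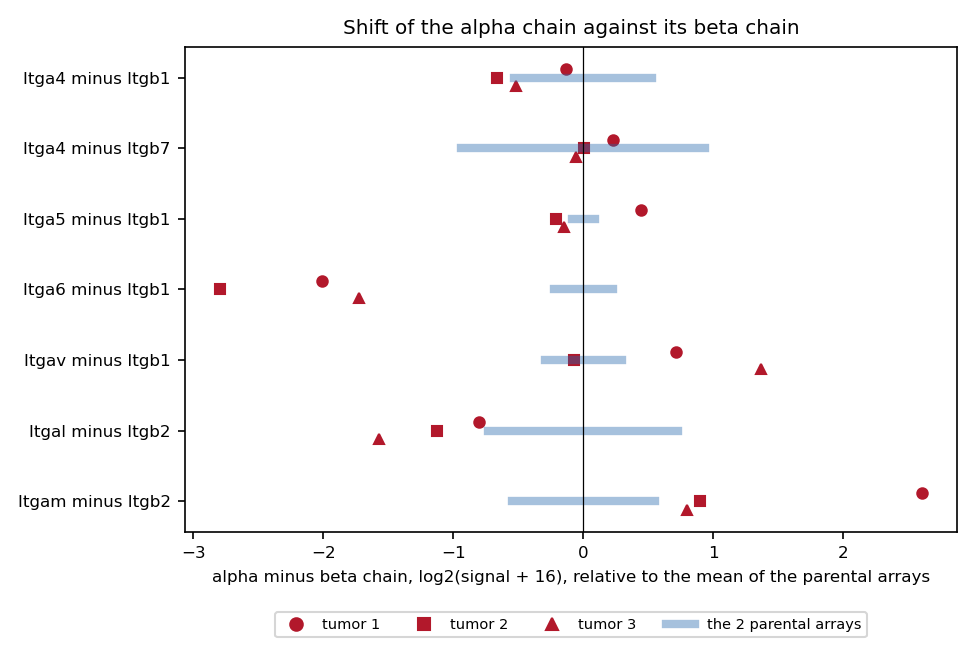
Alpha minus beta chain on the log2(signal + 16) scale, relative to the mean of the 2 parental arrays, for 7 heterodimers. Red symbols are the 3 tumors and the blue bar spans the 2 parental arrays. The tumors lie below the bar for Itga6 with Itgb1 and Itgal with Itgb2 and above it for Itgam with Itgb2.

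Of 17 further integrin chains 12 were on the array and 8 were tested, of which 1 rose and 0 fell, where 0.597% and 0.176% of all genes did. The one that rose was Itgb4, the other beta chain that pairs with alpha 6 and a component of epithelial hemidesmosomes. Its signals were 107 and 113 on the tumor 1 arrays, 119 and 135 for tumor 2 and 113 and 162 for tumor 3, against 41.0 and 52.8 in parental cells. All tumor arrays lay above both parental arrays, and Itgb4 rose by 1.16 ± 0.17 (SE, adjusted p = 0.0481 by limma).

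Itgb4 was thus higher where Itga6 was lower. No fit that left out 1 of the 5 samples kept its call (adjusted p between 0.0733 and 0.155), and it was also lost in 7 other alternatives (0.052 to 0.0848): a pseudocount of 1 or 64, no filter, quantile normalization, median centring, the mean of probe sets and the tumors' first arrays alone. The next chains are named after their values were seen, as partners of the beta 7 and alpha v chains. Itgae, the alpha chain that pairs with beta 7 to bind E-cadherin, had a change of -0.69 (adjusted p = 0.115), and it stood at 17.6 and 17.5 on the parental arrays, near the floor. Itgb5, a partner of alpha v, had a change of 0.97 (0.194).

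Integrin ligands were tested for 14 of 29 genes, and 0 passed by limma over all genes, with 6 at an unadjusted p under 0.05, where 16.4% of all genes passed, and all 6 positive. The lowest p-values were those of Lama3, a laminin alpha chain (1.41 ± 0.26, adjusted p = 0.0802), Icam1, a ligand of alpha L and alpha M with beta 2 (1.00 ± 0.18, 0.0815), and Lamb2, a laminin beta chain (1.83 ± 0.46, 0.139). Icam1 stood at 165 and 124 on the tumor 1 arrays, 122 and 105 for tumor 2 and 116 and 93.8 for tumor 3, against 56.1 and 47.8 in parental cells, with no overlap. The median change of the ligands was 0.25 and 13 of 14 lay above 0, as did 52.9% of all genes. Among these were Lama5, Lamc1 and Tgfb1, at 0.02, 0.02 and 0.05. Such signs depend on the scaling, since median centring moved the median change of all genes from 0.02 to -0.09. Vcam1 and Madcam1, whose products bind the alpha 4 integrins, lay near or below the floor, and their changes were 0.19 and 0.29 (adjusted p = 0.665 and 0.394).

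Among genes that control integrins from inside the cell, in either direction, 14 were tested and 0 passed by limma over all genes. At an unadjusted p under 0.05 there were 7, against 16.4% of all genes. The lowest p-values were those of Apbb1ip, the Rap1 effector RIAM that brings talin to the beta tail (0.77 ± 0.19, adjusted p = 0.125), Rap1b, the small GTPase itself (-0.78 ± 0.22, 0.165), and Rapgef3, a cAMP-driven exchange factor of Rap1 (0.87 ± 0.27, 0.199). The median change was 0.18.

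Of 16 tested genes of activation and cytoskeletal linkage, 0 passed by limma and 2 had an unadjusted p under 0.05 (16.4% of all genes did), with a median of 0.01. Itgb1bp1, which binds the beta 1 tail, had a change of -0.52 ± 0.15 (adjusted p = 0.173), Lpxn, a paxillin relative of blood cells, -0.91 ± 0.30 (0.22), and Actn1, an actin crosslinker, -0.35 ± 0.15 (0.309). Of 16 tested genes of signalling from bound integrins, 0 passed and 2 had an unadjusted p under 0.05, with a median of 0.16. The kinase genes Syk and Csk had changes of 0.62 ± 0.17 (0.152) and 0.72 ± 0.21 (0.178), and the adaptor gene Bcar1 had 0.45 ± 0.21 (0.351).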

How the data were processed

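The authors deposited 1 linear intensity for each probe set, computed by MAS5 per the submitters' processing notes. Its version was not given in the sources used here. Trimmed by 2% at each end, every array averaged 150.1 to 1 decimal, as after scaling to a common target. Detection calls were not used. Names came from the platform annotation and were brought up to date through RefSeq (GRCm38.p6), leaving 20380 probe sets with 1 symbol and 691 with several.

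All tests used log2(signal + 16), a scale on which changes of low signals are understated. A probe set was kept where it exceeded the 40th percentile of its array on at least 2 of 8 arrays, and a gene was its kept probe set of highest mean, among probe sets naming 1 gene. Comparisons used limma 3.58.1 in R 4.3.3 with two-sided Benjamini-Hochberg adjustment over all genes at 0.05: means of the 2 arrays of each tumor (n = 3) against 2 parental arrays. Single tumors and the F test used all 8 arrays (4 residual degrees of freedom). The fit was tested on simulated data.

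Deviations of same-numbered arrays correlated at 0.399 to 0.595 in all 6 combinations of 2 sources. The main fits held no term for the number. There each tumor is a mean over both numbers and the parental arrays enter singly, so the parental spread includes any effect of the number. Fits with the number as a block, which take it as pairing, were among the alternatives. The others were other pseudocounts, filters, normalizations, probe set rules and samples left out. Members and lists were chosen with earlier results of these data known. Named were the chains, genes of the pathway lists that passed or else the 3 of lowest p, up to 3 defining markers of a cell type list, and the 3 genes most correlated with a called chain. Summed marker signals take each gene's probe set of highest mean. Myeloid and erythroid markers beyond this were named after their values were seen. Further marker lists are summarised at the end. The number of arrays limits the precision.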

Additional observations from a re-analysis of the deposited data

How the results depend on the processing

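Genes called in tumors over parental cells numbered 66, against 33 with a pseudocount of 64, 26 with no filter, 132 in a fit of all 8 arrays with the source as a random block, 41 with the tumors' first arrays alone against both parental arrays, 118 with their second arrays alone and 13 to 73 when each sample was left out in turn (17 without parental replicate 1, 13 without parental replicate 2). With the replicate number as a block beside the source the count was 67, and Itga6 was called (adjusted p = 0.0414) and Itgam was not (0.14). Probe sets called numbered 104, against 45 with a pseudocount of 64, 22 with no filter and 9 to 94 with each sample left out (16 and 9 without parental replicate 1 and 2). Chains called numbered 1, against 0 with a pseudocount of 1 or 64, with no filter and on the first arrays alone, 2 on the second arrays alone (Itga6 and Itgam) and 0 to 1 with each sample left out, where without tumor 2 the 1 was Itgam. Genes differing among tumors numbered 138, against 72 with a pseudocount of 1, 79 with no filter and 550 with the replicate block, which also gave, for the comparison of each tumor with parental cells, 1288, 529 and 901 genes in tumors 1, 2 and 3 against 314, 131 and 218. Chains above the floor on both parental arrays numbered 8, and 5 at the 60th percentile. Centring arrays on their median moved the median change of all genes from 0.02 to -0.09 and the called genes from 51 up and 15 down to 48 up and 27 down.

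Itga6 stayed below 0 in all 18 alternatives (-3.57 to -1.18) and was called in 10 of them, and Itgam stayed above 0 in all 18 (1.25 to 3.28) and was called in 2. Signs turned for chains near 0. Itga5 was at 0.0011 with a pseudocount of 64, at 0.26 on the first arrays alone and between -0.0799 and 0.0318 with each sample left out. Itgb1 was at 0.0149 with the mean of its probe sets, at 0.0475 on the first arrays alone and between -0.12 and 0.10 with each sample left out, and Itga4 lay between -1.05 and 0.10. The pair Itga4 and Itgb7 was at -0.0592 with a pseudocount of 1, at -0.0625 with quantile normalization and between -0.88 and 1.00 with each sample left out. Itga5 and Itgb1 was at -0.0548 with quantile normalization, -0.0257 with the mean of probe sets and between -0.18 and 0.15 with each sample left out, and Itga4 and Itgb1 between -0.97 and 0.0933. The causes were not tested. For the chains the replicate block changed no call but those given for Itgam, Itgav and Itgb2. Fits without 1 parental array have no spread of their own for that group and borrow that of the tumors. Chains near the floor (Itga4, Itgal, Itgb3) are limited by signal over background.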

Other observations

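Markers of other cell types that a spleen can hold were summed over the genes on the array. T cell markers lay between 1151 and 2349 in tumors and between 103 and 167 on the parental arrays, mostly from Cd3g and Cd3d. Cd4, Cd28 and Cd3e lay below the floor in tumors. Of 3 tested, 1 was called higher, where 0.597% of all genes were. It was Cd3g, with a change of 4.46 ± 0.25 (SE, adjusted p = 0.000854 by limma). Mast cell and basophil markers lay between 2353 and 8823 in tumors and at 973 and 4083 on the parental arrays, with 0 of 5 tested called. The highest sum was that of tumor 1, mostly from Fcer1a, at 5860 there and at 36.6 and 17.8 in tumors 2 and 3. On parental arrays 1 and 2 Cma1 stood at 180 and 2047 and Cpa3 at 11.7 and 595. NK cell markers lay between 121 and 140.1 in tumors and at 41.4 and 85.3 on the parental arrays, and mature B cell markers between 497 and 591 in tumors and at 249 and 273 on the parental arrays. Endothelial markers lay between 338 and 388 in tumors and at 324 and 379 on the parental arrays, and stromal markers between 207 and 376 in tumors and at 161 and 204 on the parental arrays. Pro-B markers lay between 470.2 and 583 in tumors and near 242 on both parental arrays. Cd79a and Cd79b are in both B cell lists, at 143 and 247 in tumor 1, and made up most of both sums. In each of these lists 1 of 4 tested was called higher, Cd79b (adjusted p = 0.0411 by limma, where 0.597% of all genes were called higher). Its call was lost with a pseudocount of 1 (0.0653) or 64 (0.0523), with no filter (0.0749), with the tumors' first arrays alone (0.0877) and in each fit that left out 1 sample (0.0882 to 0.157).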
